A study of Mus musculus with 6 samples.

Results

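The triggering receptor expressed on myeloid cells (TREM) family of mouse chromosome 17 and its adaptor genes were examined in chromatin accessibility data from tumour macrophages. All distinct peaks whose gene symbol in the deposited table is Trem1, Trem2, Trem3, Treml1, Treml2, Treml4, Tyrobp or Hcst were taken, which gave 24 of 92864 peaks. Of these, 19 lie on chromosome 17, with 4 assigned to Trem1, 1 to Trem3, 5 to Treml4, 3 to Treml2, 4 to Trem2 and 2 to Treml1. The other 5 lie on chromosome 7, with 4 assigned to Tyrobp and 1 to Hcst. A peak carries the gene that the authors' annotation gave it, and which gene it acts on was not measured.

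The cells came from WT mice that carried orthotopic brain tumours of SB28, a mouse glioma line. Microglia (MG), the brain's resident macrophages, were sorted by flow cytometry as F4/80+ CD11b+ cells that were CD45lo and CD49dlo/-. Bone marrow derived macrophages (BMDM), which enter the tumour from the blood, were sorted as F4/80+ CD11b+ CD45+ cells that were CD49dhigh, and both gates required LY6Clo/- and LY6G-. Both groups therefore share host genotype and tumour, and they are separated by surface gates rather than by lineage tracing. ATAC-seq, in which a transposase inserts adapters into open DNA, gave 3 libraries per group. The labels do not say whether these came from separate mice, so p-values here cover library-to-library spread, part of which may be technical. The series text places the comparison of MG with BMDM in a question on metabolism, gene expression and cell function.

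TREM receptors are single-pass immunoglobulin-like proteins on myeloid cells. The activating members have almost no signalling tail of their own and pair with Tyrobp (also called DAP12), whose immunoreceptor tyrosine-based activation motif recruits the kinase Syk, while Hcst (DAP10) carries a motif that recruits phosphoinositide 3-kinase. Trem1 amplifies inflammatory responses of monocytes and neutrophils, Trem2 binds lipids and lipoproteins and is a receptor of microglia and tissue macrophages, and Treml1 is best known from platelets.

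The start sites of Trem1 and Trem2 carry the contrast described below. Shown are the 250 bases before the promoter start used for each, both on the + strand. They are given as in RefSeq for GRCm38.p6, the assembly that mm10 represents. The RefSeq gene body of Trem1 begins at 48232713, inside the printed stretch, and that of Trem2 at 48346401, just after its stretch. Capitals mark matches to any of the motifs searched.
Trem1, chr17:48232489-48232738: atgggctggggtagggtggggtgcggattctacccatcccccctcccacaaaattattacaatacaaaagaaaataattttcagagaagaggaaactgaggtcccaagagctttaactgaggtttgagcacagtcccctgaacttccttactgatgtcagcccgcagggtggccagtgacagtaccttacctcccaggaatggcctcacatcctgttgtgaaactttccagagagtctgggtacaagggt
Trem2, chr17:48346151-48346400: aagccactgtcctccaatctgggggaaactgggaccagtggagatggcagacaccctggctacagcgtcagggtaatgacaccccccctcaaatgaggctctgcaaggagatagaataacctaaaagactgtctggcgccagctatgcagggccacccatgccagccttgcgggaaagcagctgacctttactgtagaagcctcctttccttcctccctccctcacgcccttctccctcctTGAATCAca
With starts read as 0-based, 240 bases of the Trem1 stretch lay inside the start site peak, and all 250 of the Trem2 stretch. The table of promoters held 5 of the 8 genes (Hcst, Trem1, Trem2, Treml1 and Treml4), and each of these windows of 300 bases runs to 50 bases past the start. They were searched on both strands for GAGGAAGT (PU.1), TGANTCA (AP-1), TTGCNNAA (C/EBP), a Maf motif with a spacer, TCACGTGA (MiT), a spaced IRF motif, TGTGGT (Runx) and GGGANTTCC (NF-kB). The Trem2 window held a match to the AP-1 pattern, TGAATCA, whose first base is at -9 from the start site. Its middle A falls on the N, which the pattern leaves open to any base, so the search was loose there. The window also held a match to the C/EBP pattern, TTGCTCAA, whose first base is at 22 past the start site. No match lay in the Trem1, Hcst, Treml1 or Treml4 windows. Among 32851 promoter windows of the same length, 7.81% held the AP-1 letters, 10.8% the C/EBP letters, 3.20% the PU.1 letters and 0.387% the Maf letters. The MiT letters were in 0.974%, the IRF letters in 3.44%, the Runx letters in 16.8% and the NF-kB letters in 1.68%. A match describes letters and no bound factor.

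Accessibility is given as normalized counts, the reads in a peak divided by the authors' size factor for the library. Differences are log2 BMDM minus MG, expressed relative to the median peak or gene tested, which itself lay at -0.14 for peaks and -0.27 for genes. The limma p-values refer to the unshifted difference, and an adjusted p under 0.05 was the threshold. Reads in peaks ranged from 12531808 to 23601865 in MG and from 4910448 to 19727511 in BMDM. The limit that 3 counts allow therefore ranged from 1.64 to 5.95 normalized counts, and it covers counting error only, since PCR reads are not independent molecules. A principal component analysis of all peaks put MG 1, at -76.1 on its first axis (49.8% of variance), among the BMDM libraries (-191.9 to -4.82) and away from MG 2 and MG 3 (260 and 155). On its second axis (31.4%) MG 1 lay at -252, away from all 5 other libraries (-65.3 to 117). In these bulk libraries, more cells with an open site and more openness per cell cannot be told apart.

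The Trem cluster on chromosome 17 was more open in BMDM than in MG at peaks of Trem1, Trem3, Treml4 and Treml2 and at a distal peak given to Trem2, and the Trem2 start site peak did not pass the test. Of the 23 peaks that passed the filter on low counts, 8 were higher in BMDM (limma adjusted p under 0.05) and 0 were higher in MG. Over all 87944 peaks tested the shares were 5.33% and 1.54%. All 8 lie on chromosome 17, in 18 tested peaks there, and none of the 5 peaks of Tyrobp and Hcst was called. The distal Trem2 peak, 1 of the 8, passed the filter of 10 only through BMDM (MG mean 5.11). So did the Trem1 peak at -16747 bp and the Treml1 peak at 4711 bp (MG means 7.36 and 8.77). At an unadjusted p under 0.05 the family had 12 peaks higher in BMDM and 0 higher in MG, against 15.3% and 9.58% of all peaks. By the adjusted p in the authors' deposited table it had 9 of 24 and 0, where that table calls 9.06% and 5.38% of peaks. The 3 BMDM libraries all lay above the 3 MG libraries at 11 of the 23 peaks and below them at none, against 17.0% and 12.9% of all peaks. The median difference over the 23 peaks was 1.19, with a range of -1.04 to 2.68, where the median over all peaks is 0. The 24th peak, at 9245 bp from a Treml4 start site, was below the filter, with 12.7, 3.28 and 3.89 normalized counts in MG and 15.9, 11.0 and 10.9 in BMDM.

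These calls depend on single libraries. Without MG 1 the count of family peaks higher in BMDM was 12, against 12.1% of all peaks, without MG 2 it was 9, against 9.31%, and without BMDM 3 it was 5, against 2.31%. Without MG 3, BMDM 1 or BMDM 2 it was 0, and there no peak of the whole table passed. In those 3 fits the adjusted p of the 8 peaks ranged from 0.0790 to 0.2147. With voom on the recovered reads it was also 0, with adjusted p of 0.0505 to 0.0647 for the 8 peaks, and there too no peak of the table passed, although 21048 had an unadjusted p under 0.05. The difference of each of the 8 was positive in every one of these fits.

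**Figure D1:**
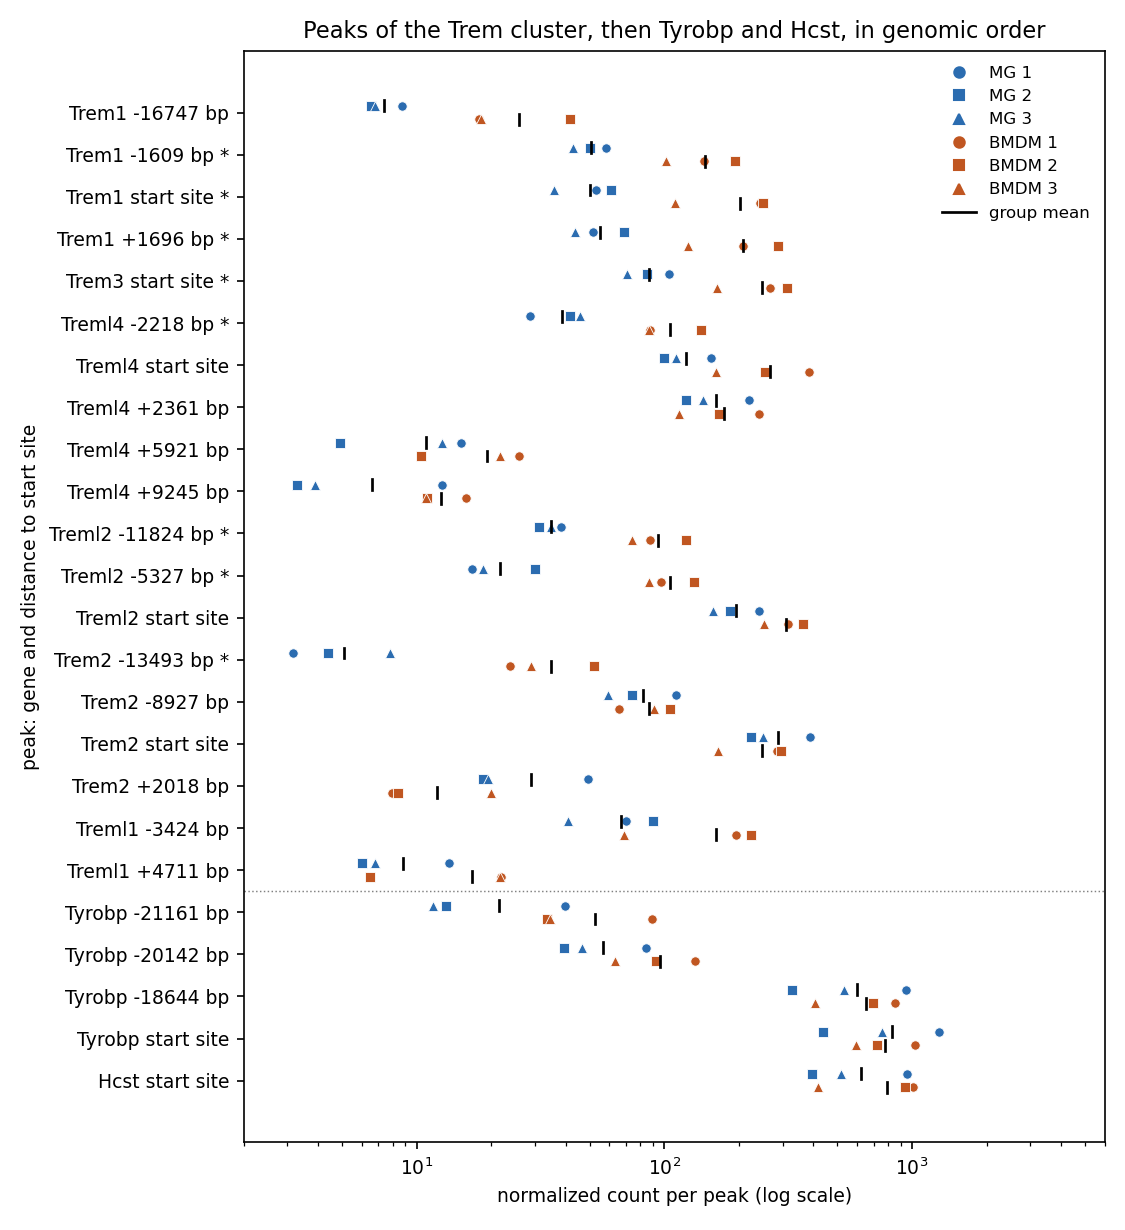
Normalized counts per library (x axis, log scale) at the 24 peaks in genomic order (y axis, gene and distance in base pairs to its start site), MG blue and BMDM orange, with bars at the group means and asterisks at the 8 peaks with an adjusted p under 0.05. Orange lies right of blue at every Trem1 and Trem3 peak, and the colours overlap at the Trem2 start site and at all 5 Tyrobp and Hcst peaks.

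Trem1 was called at 3 of its 4 peaks, at and around its start site. Its start site peak (chr17:48232498-48233018) had 53.2, 60.7 and 36.0 normalized counts in MG 1, 2 and 3, while BMDM 1, 2 and 3 had 244, 249.9 and 111. Every BMDM library exceeded every MG library. The BMDM mean was 201 ± 78.8 and the MG mean 49.9 ± 12.7 (SD, n = 3 each), a ratio of 4.04 and a difference of 2.07 ± 0.40 (SE; limma adjusted p = 0.0292). In the authors' deposited table this peak has a log2 fold change of 2.01 and an adjusted p of 0.0004.

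Both peaks that flank the Trem1 start site moved with it. The upstream one, at -1609 bp (chr17:48230635-48231159), had 57.9, 50.3 and 42.8 normalized counts in MG and 145, 192 and 101 in BMDM, without overlap, and differed by 1.62 ± 0.34 (limma adjusted p = 0.0351). The intragenic one, at 1696 bp (chr17:48234467-48235072), had 51.6, 68.9 and 43.7 in MG and 208, 288 and 125 in BMDM, again without overlap, and differed by 1.98 ± 0.37 (limma adjusted p = 0.0287). A weaker, distal peak at -16747 bp had 8.73, 6.56 and 6.80 normalized counts in MG and 17.9, 41.4 and 18.1 in BMDM. Its groups did not overlap either, but its difference of 1.71 ± 0.57 did not pass (limma adjusted p = 0.118). BMDM 3 was the lowest BMDM library at the 3 Trem1 peaks that passed and MG 3 the lowest MG library.

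Trem3 encodes another activating receptor that pairs with Tyrobp in mice, and its only peak spans the start site (chr17:48247066-48248029). That peak had 104, 84.7 and 70.9 normalized counts in MG and 266, 312 and 163 in BMDM. The groups did not overlap, with means of 86.5 ± 16.6 and 247 ± 76.3 (SD, n = 3 each). The ratio was 2.85 and the difference 1.60 ± 0.34 (limma adjusted p = 0.0364).

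Treml4, a receptor of macrophages and dendritic cells that augments Toll-like receptor signalling, was called at 1 of its 4 tested peaks. The peak at -2218 bp (chr17:48261224-48262077) had 28.6, 41.5 and 45.7 normalized counts in MG and 87.3, 141 and 87.0 in BMDM, a difference of 1.55 ± 0.35 (limma adjusted p = 0.0432). The start site peak (chr17:48263619-48264355) had 154, 100.03 and 112 in MG and 383, 255 and 161 in BMDM. The groups did not overlap at either, though BMDM 3 exceeded MG 1 by little at the start site. The start site difference of 1.19 ± 0.37 did not pass (limma adjusted p = 0.110), although the authors' deposited table gives it an adjusted p of 0.0444, and with library totals or cyclic loess as the scaling its limma adjusted p was 0.0223 and 0.0205. At the 3 peaks further downstream the groups overlapped, and the largest of these, at 2361 bp from a second annotated start site, had 219.7, 122 and 143 normalized counts in MG and 242, 166 and 114 in BMDM (difference 0.22 ± 0.37; limma adjusted p = 0.914).

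Treml2 encodes a TREM-like receptor of lymphoid and myeloid cells that does not rely on Tyrobp, and both of its upstream peaks passed the test while its start site peak did not. At -5327 bp (chr17:48293273-48294171) MG had 16.7, 30.1 and 18.5 normalized counts and BMDM had 97.2, 131 and 87.0. The lowest BMDM library was well above the highest MG library, the ratio of means was 4.84, and the difference was 2.38 ± 0.36 (limma adjusted p = 0.0260). At -11824 bp (chr17:48286901-48287674) MG had 38.1, 31.2 and 35.0 and BMDM 87.3, 122 and 74.3, a difference of 1.53 ± 0.33 (limma adjusted p = 0.0384). Here too the groups stood apart. The start site peak (chr17:48299966-48301444) was the most open of the 3, with 241, 185 and 157 in MG and 315, 363 and 254 in BMDM. Its groups did not overlap, but its difference of 0.82 ± 0.31 did not pass (limma adjusted p = 0.202). With library totals or cyclic loess as the scaling it did (limma adjusted p = 0.0339 and 0.0245).

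Trem2 had 1 called peak, far upstream, and none at its start site. The start site peak (chr17:48346111-48348022) had 389, 224 and 249.8 normalized counts in MG and 284, 296 and 165 in BMDM. The ranges overlapped widely, with means of 287 ± 88.8 and 248 ± 72.4 (SD, n = 3 each) and a difference of -0.08 ± 0.35 (limma adjusted p = 0.749), whose sign turned to 0.085 with cyclic loess. MG 1 had the highest value and BMDM 3 the lowest. The weak distal peak at -13493 bp (chr17:48332647-48332908) had 3.17, 4.37 and 7.77 normalized counts in MG and 23.8, 51.8 and 29.0 in BMDM. The groups stood apart, with a ratio of means of 6.83 and a difference of 2.68 ± 0.59 (limma adjusted p = 0.0365). This was the largest difference among the 23 tested peaks with a pseudocount of 1, but with a pseudocount of 8 it was 1.79, below the 2.06 of the Treml2 peak at -5327 bp, and without MG 2 both stood at 2.58. All 3 MG values exceeded the limit that 3 counts allow in their library, which was 2.38, 1.64 and 2.92 normalized counts in MG 1, 2 and 3. The peak met the filter on a mean of at least 10 only through BMDM, where its mean was 34.9 against 5.11 in MG. Its call is therefore not separate support for a higher level in BMDM. This peak also lies close to B430306N03Rik, a gene between Treml2 and Trem2.

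The other Trem2 peaks did not pass. At -8927 bp MG had 112, 74.3 and 59.3 normalized counts and BMDM 65.5, 105 and 90.6, an overlap with a difference of 0.25 ± 0.35 (limma adjusted p = 0.878). At 2018 bp, inside the gene, MG had 49.2, 18.6 and 19.4 and BMDM had 7.93, 8.42 and 19.9. This was the lowest difference of the family, -1.04 ± 0.58, but BMDM 3 lay above MG 2 and MG 3 and the limma adjusted p was 0.245.

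Treml1, whose protein is stored in platelet granules, had no peak at its start site. Its peak at -3424 bp (chr17:48355735-48356492) had 69.8, 89.6 and 40.8 normalized counts in MG and 194, 223 and 68.8 in BMDM. BMDM 1 and 2 were far above MG and BMDM 3 lay within the MG range. The difference of 1.31 ± 0.48 did not pass (limma adjusted p = 0.165), but it did without MG 1 (0.0150) or MG 2 (0.0368). An exonic peak at 4711 bp had 13.5, 6.01 and 6.80 in MG and 21.8, 6.48 and 21.7 in BMDM, with overlap (difference 0.90 ± 0.69; limma adjusted p = 0.540).

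The adaptor genes Tyrobp and Hcst are neighbours on chromosome 7 and were open in both cell types. The Tyrobp start site peak (chr7:30412377-30414412) had 1286, 436 and 758 normalized counts in MG and 1028, 722 and 594 in BMDM. The spread within MG exceeded the distance between the means, and the difference was 0.15 ± 0.43 (limma adjusted p = 0.985). The Hcst start site peak (chr7:30419470-30420597) had 952, 396 and 517 in MG and 1012, 937 and 418 in BMDM, an overlap with a difference of 0.48 ± 0.45 (limma adjusted p = 0.682). MG 1 was the highest MG library at both, and BMDM 3 the lowest BMDM library.

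The 3 upstream peaks given to Tyrobp lay between -21161 and -18644 bp. The largest, at -18644 bp (chr7:30394000-30395116), had 942, 326 and 533 normalized counts in MG and 857, 694 and 406 in BMDM (difference 0.32 ± 0.44; limma adjusted p = 0.832). The 2 smaller ones differed by 1.45 ± 0.56 and 0.90 ± 0.40 (limma adjusted p = 0.182 and 0.274). Without MG 1 both passed, with differences of 1.93 and 1.17 (limma adjusted p = 0.00233 and 0.0372). With all libraries, at all 3 the groups overlapped. The median difference over the 5 peaks of chromosome 7 was 0.48, and over the 18 tested peaks of chromosome 17 it was 1.42.

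Start sites can be compared between genes only per length. Per kilobase of peak, Hcst had the highest level in both groups, with 551 ± 259 normalized counts in MG and 699.5 ± 286 in BMDM (SD, n = 3 each). Tyrobp followed in MG with 406 ± 211, and in BMDM its 384 ± 109 lay just under the level of Trem1. The intervals of 1 SD of Hcst and of the gene next to it in each order overlapped. These intervals hold the spread between libraries, and the genes were not compared within each library, so overlap does not show equal levels. In MG the receptors followed at 165 ± 38.4 for Treml4, 150.3 ± 46.4 for Trem2, 131 ± 28.9 for Treml2, 95.8 ± 24.3 for Trem1 and 89.8 ± 17.2 for Trem3. Neighbours among these receptors also had overlapping intervals of 1 SD. In BMDM the order of the receptors was Trem1 at 387 ± 151, Treml4 at 361 ± 151, Trem3 at 256 ± 79.1, Treml2 at 210.1 ± 37.2 and Trem2 at 129.8 ± 37.9. Trem1 was thus near the bottom among these receptors in MG and at the top in BMDM, a place it shared with Treml4 within the spread. The neighbours in the BMDM order had overlapping intervals of 1 SD, apart from Treml2 and Trem2, whose intervals did not meet.

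By class of peak, 2 of the 7 start site peaks (promoter up to 1 kb in the authors' annotation), 3 of the 5 peaks at 1 to 3 kb and 3 of the 10 distal intergenic peaks were higher in BMDM. Over all tested peaks of the same classes the shares were 2.12%, 5.29% and 6.28%. The median differences of these classes were 0.82, 1.55 and 1.38.

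**Figure D2:**
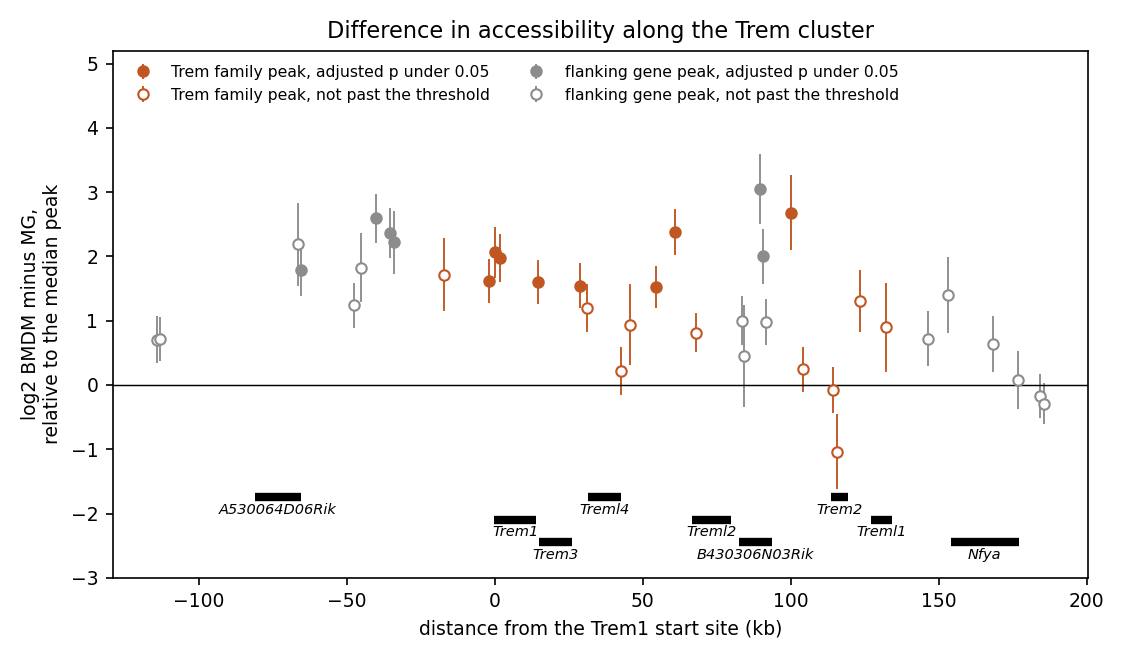
Difference in accessibility (y axis, log2 BMDM minus MG relative to the median peak, with bars of 1 SE) by distance of the peak's centre from the Trem1 start site (x axis, kilobases), for the 18 tested Trem family peaks (orange) and 20 peaks of flanking genes (grey), filled where the adjusted p was under 0.05; black boxes are RefSeq gene bodies. Filled points run from A530064D06Rik through Trem1, Trem3, Treml4 and Treml2 to B430306N03Rik and the distal Trem2 peak, and the Trem2 start site lies near 0.

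The difference did not stop at the TREM genes. Flanking genes were chosen after the values were seen, as the neighbours on either side, and include B430306N03Rik within the cluster. Of 20 tested flanking peaks on chromosome 17, 6 were higher in BMDM and 0 in MG, with a median difference of 1.12. In 13 of them all BMDM libraries lay above all MG libraries. Over all peaks tested, 5.33% were higher in BMDM and 1.54% in MG, and 15.3% and 9.58% at an unadjusted p under 0.05. All BMDM libraries lay above all MG libraries in 17.0% and below them in 12.9%. A530064D06Rik, upstream of Trem1, was higher at its start site (1.79, limma adjusted p = 0.0417) and at -25165, -29890 and -31234 bp (2.59, 2.37 and 2.22). The differences of B430306N03Rik at 5955 bp and at 6798 bp were 3.05 and 2.00 (limma adjusted p = 0.0265 and 0.0361). The B430306N03Rik peak at 5955 bp and the A530064D06Rik peak at -31234 bp passed the filter of 10 only through BMDM (MG means 4.36 and 9.83). So did the A530064D06Rik peaks at 606 and -20171 bp and the Nfya peak at 5920 bp (MG means 4.48, 7.58 and 8.88). All of these are among the 13 without overlap, so that count and the median of 1.12 rest in part on peaks admitted through BMDM. On the outer side of A530064D06Rik, both peaks of 9830107B12Rik differed by 0.71 and did not pass (limma adjusted p = 0.363 and 0.341). Beyond Treml1, the peaks of Nfya, a subunit of a CCAAT-binding factor, differed by 0.63 to 1.40 and those of Oard1 by -0.29 to 0.08, and none passed. Around Tyrobp and Hcst, 0 of 6 tested peaks of Nfkbid and Aplp1 passed by limma, with 1 at an unadjusted p under 0.05, 0 by the authors' deposited adjusted p and a median of 0.42.

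Summed per gene over all peaks within 100 kb of its start site, 3 of the 8 genes were higher in BMDM (limma adjusted p under 0.05) and 0 were higher in MG. Over 18246 genes the shares were 2.14% and 3.51%. At an unadjusted p under 0.05 the counts were 5 and 0, against 6.24% and 15.6% of genes, and with voom they were 2 and 0, where 1.52% of genes were higher in BMDM. In 3 of the 8 genes all BMDM libraries exceeded all MG libraries, against 6.87% of genes, and in none were all below, against 21.5%. The split of all genes called rests on the scaling: it was 391 higher and 640 lower in BMDM with the authors' size factors, 560 and 251 with library totals and 1117 and 397 with cyclic loess.

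Trem1 had the largest sum difference of the family. Its sums were 171, 186 and 129 normalized counts in MG and 615, 772 and 355 in BMDM, without overlap, and differed by 2.05 ± 0.32 (limma adjusted p = 0.00725). Trem3, with its single peak, differed by 1.74 ± 0.34 (limma adjusted p = 0.0201). The Treml2 sums were 296, 246 and 211 in MG and 499.9, 617 and 415 in BMDM, also without overlap, and differed by 1.29 ± 0.28 (limma adjusted p = 0.0451). A larger difference than that of Trem1 was found for 1.22% of genes, than Trem3 for 2.12% and than Treml2 for 4.24%. The differences of all 3 were positive under the authors' size factors, library totals and cyclic loess, before and after the shift to the median gene.

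The other 5 genes did not pass. Treml1 sums were 83.3, 95.7 and 47.6 in MG and 216, 229.9 and 90.6 in BMDM (1.45 ± 0.41, limma adjusted p = 0.101), where BMDM 3 fell below MG 2. Treml4 sums were 430.0, 272 and 317 in MG and 754, 583 and 395 in BMDM (1.01 ± 0.31, limma adjusted p = 0.165), where BMDM 3 fell below MG 1. With library totals and cyclic loess the Treml4 adjusted p was 0.0296 and 0.0199. The Trem2 sums overlapped, at 553, 321 and 336 in MG and 381, 461 and 304 in BMDM (0.22 ± 0.30, limma adjusted p = 0.935). Before the shift to the median gene the Trem2 difference was -0.05, so its sign rests on that shift. Tyrobp had the highest sums, 2352, 814 and 1349 in MG and 2107, 1542 and 1098 in BMDM, and differed by 0.42 ± 0.38 (limma adjusted p = 0.839), while Hcst differed by 0.61 ± 0.37 (limma adjusted p = 0.620). A p that misses the threshold does not show that these genes were equally open.

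Leaving out 1 library moved these calls too. Without MG 1, 5 genes were higher in BMDM (Trem1, Trem3, Treml1, Treml2 and Treml4), against 4.0% of all genes. Without MG 3 or BMDM 1 the count was 1, against 1.04% and 0.433% of genes. Without BMDM 2 it was 0, and there no gene of the whole table passed. The gene differences relative to the median gene kept their sign in all 48 leave-one-out values.

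**Figure D3:**
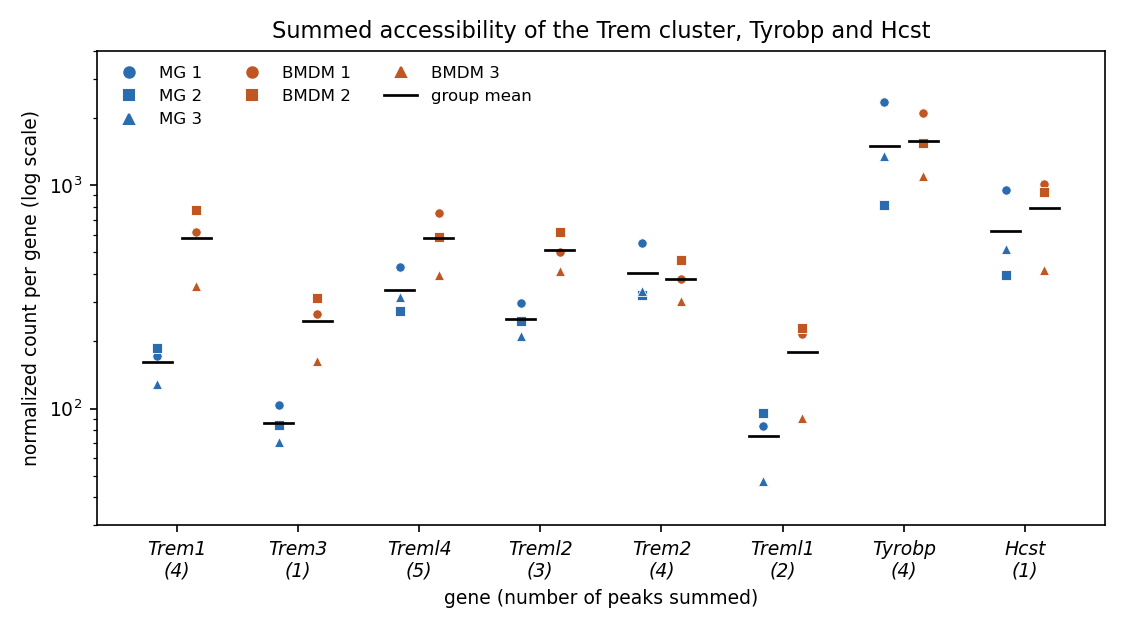
Normalized counts summed per gene (y axis, log scale) for the 8 genes (x axis, with the number of peaks summed), 1 point per library, MG blue and BMDM orange, with bars at the group means. The groups are apart for Trem1, Trem3 and Treml2 and overlap for the other 5 genes.

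**Figure D4:**
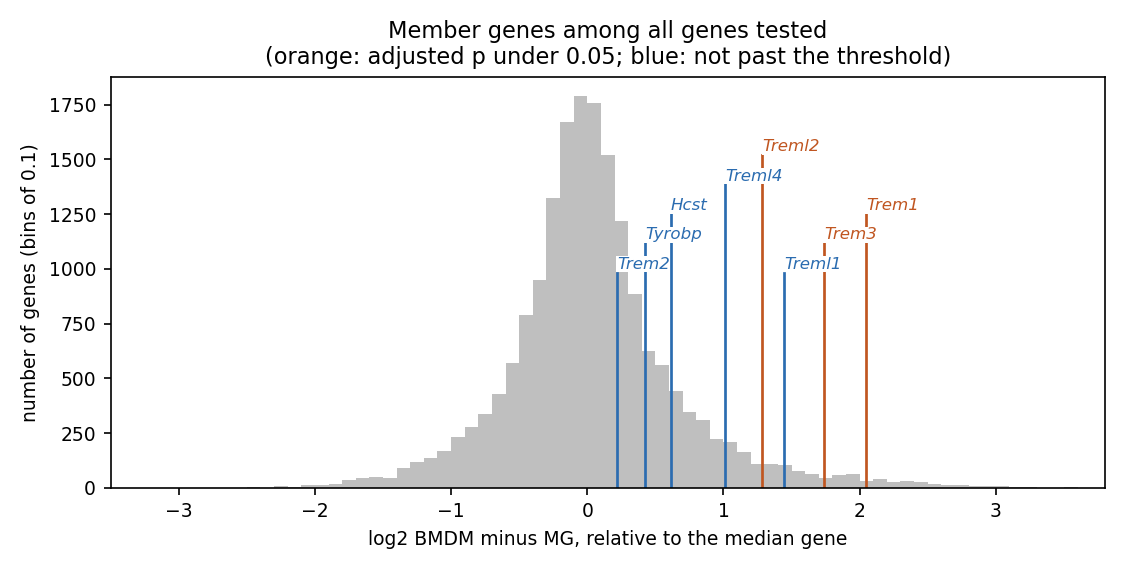
Histogram of the gene differences (x axis, log2 BMDM minus MG relative to the median gene; y axis, number of genes per bin of 0.1) for 18246 genes, with lines at the 8 genes, orange where the adjusted p was under 0.05. All 8 lie right of 0, from Trem2 at 0.22 to Trem1 at 2.05.

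The ratio of a gene to Trem2 within each library does not depend on how libraries are scaled, and it was examined after the values were seen. The ratio of the Trem1 sum to the Trem2 sum was 0.310, 0.581 and 0.384 in MG and 1.61, 1.67 and 1.17 in BMDM. Trem2 thus had the larger sum in every MG library and Trem1 in every BMDM library. For Treml2 the ratio was 0.535, 0.767 and 0.627 in MG and 1.31, 1.34 and 1.363 in BMDM. Within Trem2, the peak at -13493 bp had 0.00816, 0.0196 and 0.0311 of the start site count in MG and 0.0839, 0.175 and 0.176 in BMDM. In each of these 3 ratios the groups did not overlap, and the same held for Trem3 and Treml4 over Trem2. An exact two-sided permutation test gave p = 0.10 for those 5 of the 6 ratios and p = 0.20 for Treml1 over Trem2, or 0.12 and 0.20 after Benjamini-Hochberg adjustment over the 6. With 3 against 3 libraries, 0.10 is the smallest p the design allows. Those 5 ratios include that of the Trem2 peak at -13493 bp, which had already been called higher in BMDM in the same libraries. This peak passed the filter on low counts only through BMDM. The p of its ratio is therefore not separate support for a higher level in BMDM.

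Likeness of pattern was ranked only among tested genes with a mean above the median gene and without Rik, Gm or Mir names. Among these, the genes most like Trem1 in accessibility over the 6 libraries were Il1rn, Ptchd3 and F13a1. Il1rn encodes the interleukin 1 receptor antagonist and F13a1 the A chain of coagulation factor XIII. The root mean square differences of Il1rn, Ptchd3 and F13a1 from Trem1 were 0.114, 0.141 and 0.143 on the log2 scale after centring each gene. The genes most like Trem2 were Exoc6, Slc34a1 and Tbc1d9, at 0.0569, 0.0616 and 0.0636.

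Signalling partners of the TREM receptors were read from a list. It held 45 ligands, sheddases, kinases, inhibitors, adaptors and other receptors, some of which pair with Tyrobp or Hcst. Of these, 42 were tested, of which 2 were higher in BMDM and 0 were higher in MG (limma adjusted p under 0.05, or 6 and 1 at an unadjusted p under 0.05). The same shares as above, 2.14% and 3.51% of genes, and 6.24% and 15.6% unadjusted, are the background of these counts. Their median difference was 0.40, between 0 for all genes and 1.15 for the 8 TREM family and adaptor genes, and that order was not tested. With library totals and cyclic loess the count higher in BMDM was 5 and 6, against 3.05% and 6.12% of genes. Without MG 3, BMDM 1 or BMDM 2 it was 0, and without BMDM 3 it was 1, against 1.84% of genes.

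Both called genes encode activating receptors of other families that signal through Tyrobp. Sirpb1a, a signal-regulatory protein, had 25.4, 24.6 and 11.7 normalized counts in MG and 97.2, 117 and 70.7 in BMDM, without overlap (2.47 ± 0.47, limma adjusted p = 0.0135). Pilrb1, a paired immunoglobulin-like receptor, had 119.8, 117 and 93.3 in MG and 274, 269 and 205 in BMDM, also without overlap (1.44 ± 0.30, limma adjusted p = 0.0340). Syk, the kinase that binds phosphorylated Tyrobp, had 3833, 2249.9 and 2616 in MG and 7766, 5165 and 3957 in BMDM. All BMDM libraries exceeded all MG libraries for Syk, but the difference of 1.21 ± 0.39 did not pass (limma adjusted p = 0.173). Fcer1g, the adaptor of Fc receptors, differed by 0.39 ± 0.33 (limma adjusted p = 0.866), and Siglech, a microglial lectin that pairs with Tyrobp, by -0.23 ± 0.31 (limma adjusted p = 0.354).

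**Figure D5:**
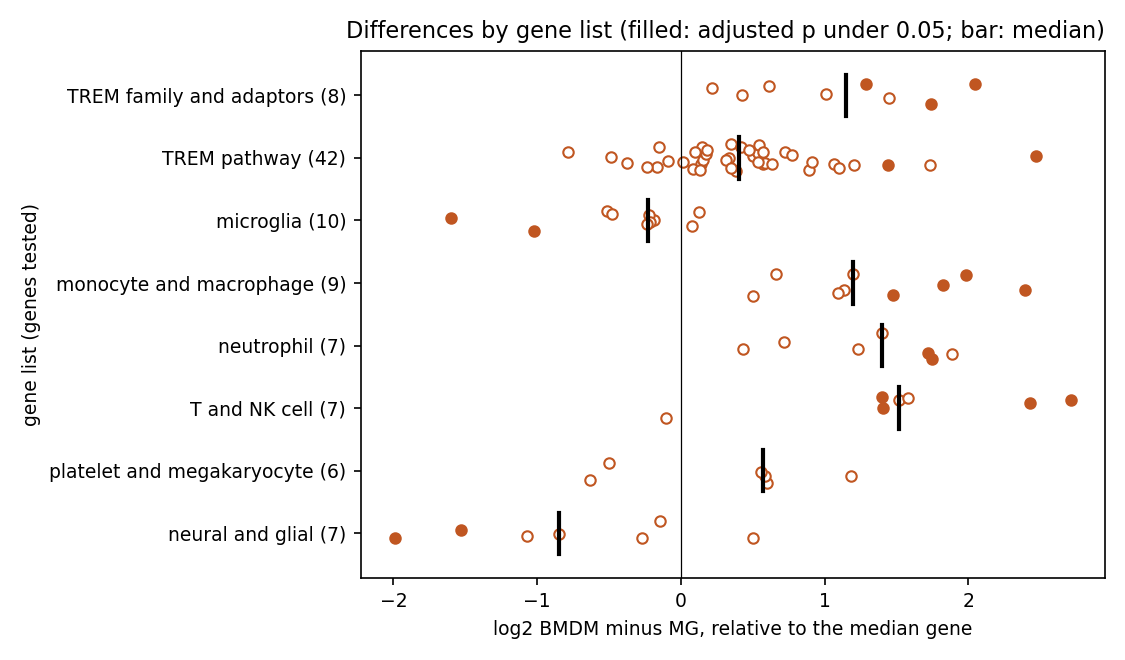
Differences per gene (x axis, log2 BMDM minus MG relative to the median gene) by list (y axis, with the number of genes tested), filled where the adjusted p was under 0.05, with a bar at each list's median. The 8 TREM family and adaptor genes have a median of 1.15, near the monocyte and macrophage list at 1.199, and the pathway list lies at 0.40.

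Marker genes were read to check the gates. Of 10 microglia genes, 2 were higher in MG, namely Sall1 (difference -1.60), which maintains microglial identity, and Olfml3 (-1.02), and 0 were higher in BMDM. The sums over the list were 7557 to 12370 normalized counts in MG and 4879 to 6227 in BMDM. Of 9 tested monocyte and macrophage genes, 4 were higher in BMDM, among them Itga4, which encodes the CD49d of the gate, Ly6c2 and F10, and 0 were higher in MG, with list sums of 5913 to 7554 in MG and 8131 to 15645 in BMDM. Over all genes tested, limma called 3.51% higher in MG and 2.14% higher in BMDM. At an unadjusted limma p under 0.05, 4 of the 10 microglia genes were higher in MG, against 15.6% of all genes. By the same measure 7 of the 9 monocyte and macrophage genes were higher in BMDM, against 6.24%. In the opposite direction each list had 0. The list sums of both sets followed the labels without overlap. Gene by gene the microglia list did so only weakly. Its median difference was -0.23, and Tmem119 (0.123) and Gpr34 (0.0798) were positive relative to the median gene, while its other genes were negative. In 3 of its 10 genes all BMDM libraries lay below all MG libraries, against 21.5% of all genes. Ly6c2 was higher in BMDM although both gates required LY6Clo/-.

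Markers of other blood cells were read too, since neutrophils express Trem1 and platelets Treml1, and some of them moved with the Trem1 end of the cluster. The background is again 2.14% of all genes higher in BMDM and 3.51% in MG, and 6.24% and 15.6% at an unadjusted p under 0.05. Of 7 tested neutrophil genes 2 were higher in BMDM (Ly6g and Mmp8, with a list median of 1.40), although both gates excluded LY6G+ cells, and the list sums were 804 to 1298 in MG and 1107 to 1597 in BMDM. Of 7 tested T and NK cell genes 4 were higher in BMDM (Cd2, Gzma, Nkg7 and Prf1, median 1.52), with sums of 3509 to 4608 and 3275 to 5312. Platelet and megakaryocyte genes, of interest for Treml1, had 0 of 6 called by limma (1 higher in BMDM and 2 higher in MG at an unadjusted p under 0.05), with sums of 1337 to 1484 in MG and 919 to 1258 in BMDM. Of 7 neural and glial genes 2 were higher in MG (Mog and Snap25), with sums of 4887 to 6264 and 3804 to 4989. No measured gene of these lists was at 0 in any library, but 1 gene of each list had no peak within 100 kb and was not measured. The part of these other cell types in the differences of the TREM genes was not tested.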

How the data were processed

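Chromatin accessibility was measured in 3 MG and 3 BMDM libraries. The authors used DESeq2 1.36.0, ChIPseeker 1.32.1, MACS2 2.1.1.20160309, Bowtie2 2.4.1 and cutadapt 1.8.1 with mm10, per the submitters' processing notes. Settings and read shifting are not stated in the labels. The authors deposited variance-stabilized log2 values per library, together with a mean signal, a log2 fold change, a p-value and an adjusted p-value for each peak. The deposited peak lists, 1 per library, hold a fold enrichment and −log10 p and q values, used only for listing. Of 93084 lines, 155 repeated a peak and 65 had no annotation. A further 8 value columns fit no label and were left out.

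Inverting the stabilization returned normalized counts that met the deposited means within a relative error of 2.4e-06. Times the size factors these were whole to 0.02 read in 99.999% of peaks or more. Since the deposited values are normalized, limma 3.58.1 (R 4.3.3) with a trend was fitted to log2(normalized count + 1) of all peaks or gene sums with a mean of at least 10, with Benjamini-Hochberg adjustment over all of them. Fold changes on this scale understate those of low peaks. The script was tested on simulated data. A share of 0.673 of table starts equal a 0-based start in a peak list and none equal it plus 1, so for those peaks the first base is 1 later than printed; the other starts were not settled.

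The genes and lists were chosen with earlier results of these data known. Named were all 8 genes, each peak past the threshold, each gene's peaks nearest the start site and highest in mean, pathway genes past the threshold with Syk, Fcer1g and Siglech, and the 3 genes most like Trem1 and Trem2. Alternatives were other scalings, pseudocounts and filters, voom, robust moderation, a replicate block, narrower gene windows and each library left out.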

Additional observations from a re-analysis of the deposited data

How the results depend on the processing

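Depth limits the family's weakest peaks, which hold few reads in BMDM 1 and 3. None of the 8 genes' differences relative to the median gene reversed in 48 leave-one-out values and 87 values under other settings. Peaks of the family higher in BMDM numbered 8, and 0 with voom, 10 with library totals or cyclic loess, 7 with a mean of at least 50 and 0 to 12 with 1 library left out. Genes of the family numbered 3, and 0 to 5 with 1 library left out. Pathway genes higher in BMDM numbered 2, but 5 with library totals, 6 with cyclic loess and 0 to 3 with 1 library left out. Those higher in MG numbered 0, and 0 to 1 with 1 library left out (1 without MG 1). With the replicate number as a block the counts were 11 peaks and 5 genes of the family and 5 and 1 pathway genes. The numbers are not known to pair libraries: same-numbered libraries' deviations correlated at 0.44, -0.06 and 0.36. The Trem2 start site difference of -0.08 became 0.085 with cyclic loess and 0.018 with a mean of at least 50, and ranged from -0.29 to 0.13 with 1 library left out. That of Tyrobp, 0.15, ranged from -0.29 to 0.49. Treml2 lost its gene call with voom (adjusted p = 0.0624) and with promoter peaks alone (0.173), and Treml1 gained one with robust moderation (0.0459). The Tyrobp peak at -21161 bp passed with the block (0.0401). Over all peaks, 4687 were higher in BMDM and 1352 in MG: 2403 higher in BMDM with a mean of at least 50, 2305 higher in MG with cyclic loess, 0 and 0 with voom, 9212 and 5215 with the block, 8414 and 4994 by the authors' deposited p, and 0 to 10603 and 0 to 11278 with 1 library left out. Over all genes, 391 and 640 became 912 and 2333 with the block and 0 to 730 and 0 to 2246 with 1 library left out, and those higher in MG became 303 with voom, 1044 within 10 kb and 1397 with promoter peaks alone. The causes were not tested.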

Other observations

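In the authors' peak lists, called separately in each library, 22 of the 24 peaks of the TREM family and adaptors overlapped a peak of at least 1 list and 7 were in all 6 lists. The lists of MG 1, 2 and 3 held 16, 16 and 14 of the 24, and those of BMDM 1, 2 and 3 held 15, 18 and 8. The lists differ in size, from 17741 peaks in BMDM 3 to 70739 in MG 2. The peaks in BMDM lists alone numbered 4, each in 1 list, and the peaks in MG lists alone numbered 3. The distal peaks of Trem2 at -13493 bp and Trem1 at -16747 bp and the Treml4 peak at -2218 bp were listed in BMDM 2 only. The Trem1 start site was listed in MG 1, MG 2, BMDM 1 and BMDM 2.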
